A study of Mus musculus with 10 samples.

Results

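The autosomes of male mouse embryonic stem cells (mESCs) after 10 passages in the Mulas2019 conditions (p10 Mulas2019) were compared with those of the same lines at the start of culture (p0), using low-coverage DNA sequencing. The comparison uses the libraries of replicates 1 and 2 at both points, which are 4 of the 10 libraries in the series, and chromosomes 1 to 19. The cells were lines of the C57/Bl6 strain in 2i/LIF medium, with no allele or transgene named in the labels. Per the methods of the study the lines were derived independently with the study's own modified protocol (Keniry2022), which is also what the p0 cultures had known until each line was split between both conditions. In the Mulas2019 conditions cells were then plated at lower density on gelatin and passaged every other day, whereas Keniry2022 cultures were passaged daily in suspension. Each group holds 1 library from each line, so that a value for line 1 or line 2 is the p10 library of a replicate number over the p0 library of the same number.

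2i/LIF medium holds mESCs in the naive state of pluripotency, that of the early epiblast. It does so by blocking MEK and GSK3, kinases of the ERK and Wnt pathways, while the cytokine LIF activates STAT3. Cultured mESCs can gain or lose whole chromosomes or segments, and a cell with a growth advantage can take over a culture. In sequenced DNA such a change appears as more or fewer reads over the whole affected stretch. Mammalian autosomes are also a mosaic of long AT-rich stretches with few genes and GC-rich stretches with many genes, and the reads obtained from a stretch can depend on its base composition as well as on its copy number.

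Depth was 30515890 and 30644653 reads for replicates 1 and 2 at p0, and 27270648 and 35354358 reads at p10. Reads were summed in bins of 1 Mb and expressed as CPM, which divides them by the total reads of the library, and 2391 of 2473 autosomal bins passed the filter on low values. The median autosomal bin held 11468 to 14724 reads in these libraries, which gives it a counting error of 0.824% to 0.934%. Bins with fewer reads have a larger one. As a check of the label male, the median X bin had 0.340 and 0.340 of the median autosomal CPM at p0 and 0.431 and 0.442 at p10. The Y chromosome had 16973 and 21001 reads at p0 and p10 in line 2 but only 442 and 240 reads in line 1, which therefore lacked most of the Y signal of the other line already at p0. In the p20 Keniry2022 libraries, which enter only the shared estimate of spread, the low share of windows without a read that marks line 2 elsewhere was found in the library labelled replicate 1 (5.99%) and not in that labelled replicate 2 (6.80%), so their numbers go against the other libraries. With only the 4 libraries compared here in the fit, 58.3% of autosomal bins passed, against 58.2% with all 10.

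The bins with the largest gains and losses differed in base composition. To show what such sequence looks like, the middle 150 bases of 1 gain and of the 2 deepest losses are given on the plus strand of GRCm38 (mm10), with G and C in capitals.
Gain, chr3:44499925-44500074: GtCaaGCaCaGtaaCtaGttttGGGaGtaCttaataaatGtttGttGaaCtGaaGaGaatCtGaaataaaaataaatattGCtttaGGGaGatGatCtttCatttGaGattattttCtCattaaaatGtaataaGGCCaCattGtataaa
Loss, chr4:140499925-140500074: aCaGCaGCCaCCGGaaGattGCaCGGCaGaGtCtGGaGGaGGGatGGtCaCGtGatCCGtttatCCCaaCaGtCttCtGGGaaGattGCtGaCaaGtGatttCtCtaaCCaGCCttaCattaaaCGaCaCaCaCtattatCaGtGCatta
Loss, chr8:120499925-120500074: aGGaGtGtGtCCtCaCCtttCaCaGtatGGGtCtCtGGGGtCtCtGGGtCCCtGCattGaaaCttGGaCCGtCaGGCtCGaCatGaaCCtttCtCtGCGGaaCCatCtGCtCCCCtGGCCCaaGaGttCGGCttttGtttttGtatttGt
G and C make up 28.0% of the stretch from the gain, and 47.3% and 52.0% of those from the losses. Over the whole bins the GC content was 36.3% for the gain and 51.8% and 52.4% for the losses.

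The first question was how much of the autosomal genome differed from p0. At p10 AT-rich, gene-poor bins were higher and GC-rich, gene-dense bins were lower, in both lines and on all 19 autosomes. Of the 2391 autosomal bins, 1392 (58.2%) passed the threshold with limma's TREAT test against a minimum fold of 1.1 (Benjamini-Hochberg adjusted p under 0.05), 741 of them higher (31.0%) and 651 lower (27.2%). With the X and Y bins the shares were 58.8%, 33.1% and 25.7%. The log2FC of the higher bins ran from 0.18 to 0.72 with a median of 0.41, and that of the lower bins from -0.44 to -0.17 with a median of -0.27. All 1392 had the same sign in line 1 and line 2, as did 2289 of the 2391 bins (95.7%). On either side of the threshold lay a bin of chromosome 3 from 56000001 to 57000000 at 0.24 in log2FC (SE 0.049, limma adjusted p 0.0496) and a bin of chromosome 15 from 72000001 to 73000000 at -0.18 (SE 0.021, limma adjusted p 0.0507). The split depends on how libraries are scaled. With the 75th percentile of autosomal bins in place of the total reads, the median log2FC of the autosomal bins moved from -0.02 to 0.17, and 1157 bins were higher and 60 lower, so that higher and lower are to be read relative to the total reads of a library.

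The size of the change is set beside the levels in each library. At p0 the CPM of the 95th percentile bin was 2.71 and 2.64 times that of the 5th percentile bin in replicates 1 and 2, and at p10 it was 1.54 and 1.46 times. Both p10 libraries were thus more even along the genome than both p0 libraries, with no overlap. Over the autosomal bins log2 CPM had an SD of 0.489 and 0.479 at p0 and 0.279 and 0.266 at p10. The ratio of p10 to p0 had an SD of 0.278 in line 1 and 0.292 in line 2, against 0.028 between the p0 libraries and 0.040 between the p10 libraries. The lines followed each other closely, with r = 0.987 over the 2391 bins, a description over bins that share their libraries.

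The change of a bin followed its GC content. Pearson's r was -0.964 in line 1 and -0.937 in line 2 over the 2391 bins, and a straight line fell by 0.076 and 0.078 on the log2 scale per percent of GC, crossing 0 at 42.5% GC in both lines. The relation was curved, steeper below 42% GC than above it. In the 356 bins with 36% to 38% GC the median CPM was 234 and 236 at p0 and 330.3 and 345 at p10. In the 97 bins with 48% to 50% GC it was 590 and 575 at p0 and 454 and 455 at p10. Bins of 40% to 42% GC had nearly the same level in all 4 libraries, from 397 to 417 CPM. In each library the log2 CPM rose with GC, by 0.116 and 0.112 per percent at p0 and by only 0.040 and 0.034 per percent at p10. Whether this difference arose in the cells or in the making of the libraries cannot be told apart, because each culture was sequenced once.

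**Figure D1:**
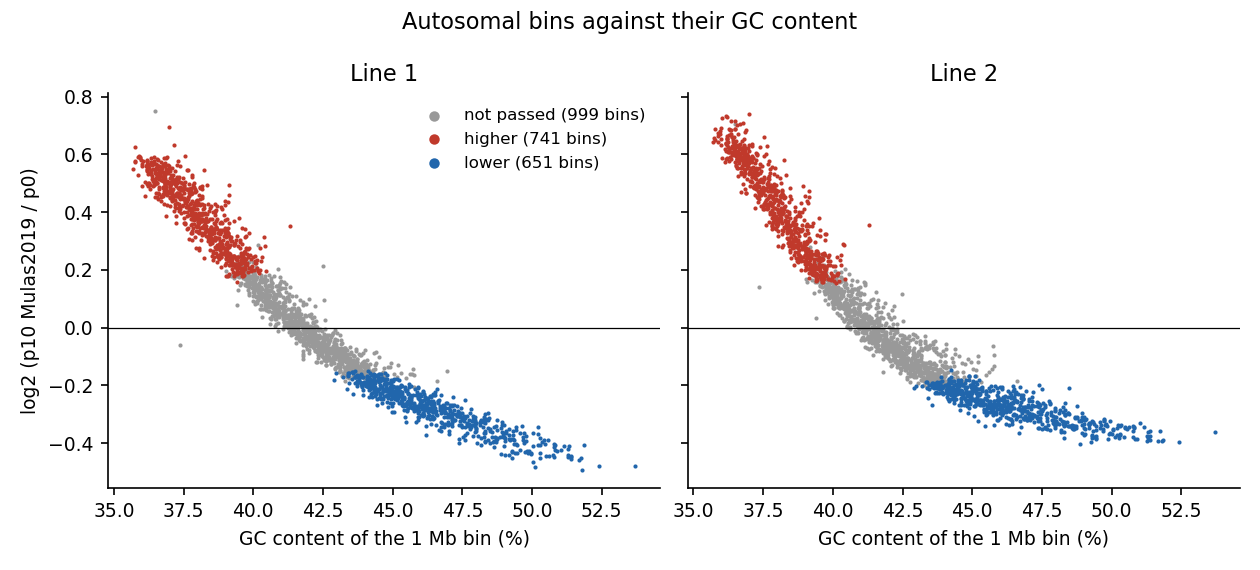
Each point is 1 of 2391 autosomal bins of 1 Mb, with its GC content in percent on the x axis and its log2 ratio of p10 Mulas2019 over p0 on the y axis, in line 1 (left) and line 2 (right). Red bins were called higher (741), blue bins lower (651) and grey bins did not pass (999), and the cloud falls from upper left to lower right in both lines.

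**Figure D2:**
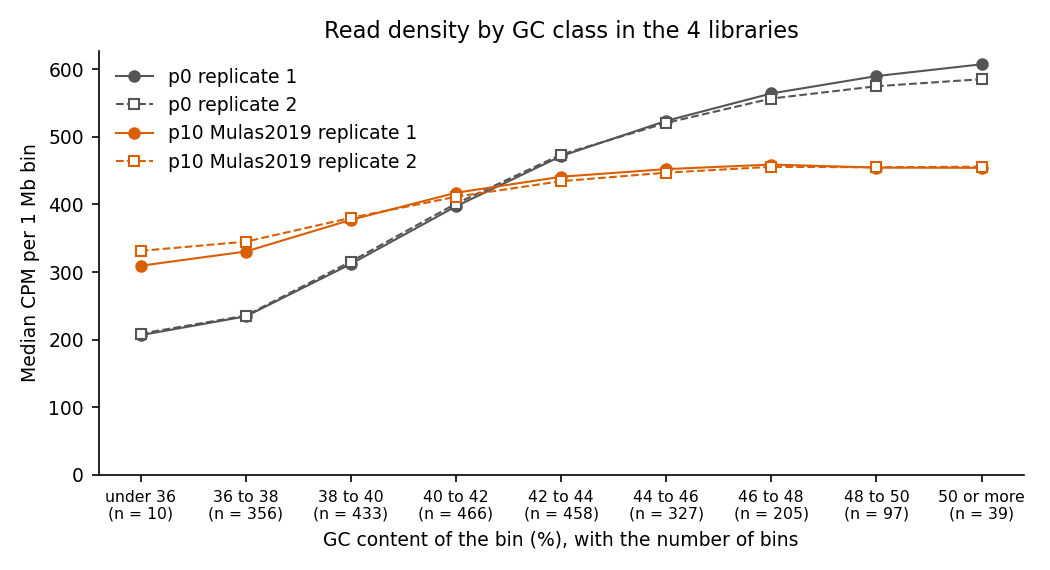
Points are the median CPM per 1 Mb bin in 9 classes of GC content (x axis, percent, with the number of bins), for p0 (grey) and p10 Mulas2019 (orange), replicate 1 as filled circles and replicate 2 as open squares. Both p0 curves are steeper than both p10 curves, and they cross between 40% and 44% GC.

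Called bins also differed in what they hold. The 741 higher bins had a median GC content of 38.02%, a median of 1 protein-coding gene by start site and 40.9% repeat-masked sequence, and 30.9% of them held no gene start. The 651 lower bins had a median GC content of 46.1%, 12 genes and 26.7% masked sequence, and 0.307% held no gene start. Of the 20535 protein-coding genes that start in autosomal bins, 2528 (12.3%) lay in higher bins and 10030 (48.8%) in lower bins. Gene density followed the change less closely than GC did, with r of -0.485 in line 1 and -0.449 in line 2 over bins. In the 36% to 38% GC class the 174 bins without a gene had a median of 0.50 in line 1 and 0.58 in line 2, and the 15 bins with 10 or more genes, whose median GC content was 37.2% against 36.9%, had 0.51 and 0.57. Once a curve on GC content was subtracted from each library, bins with 10 or more genes had the higher median in both lines in each of the 5 classes that hold both kinds. In the 38% to 40% class it was 0.02 in line 1 and 0.04 in line 2 for 44 such bins, against -0.01 and -0.02 for 63 bins without a gene. The classes of 42% to 44% and 44% to 46% GC held only 8 and 3 bins without a gene. In the latter class line 2 had 0.006 for bins with 10 or more genes, against -0.001 for those without. Over all bins the number of genes had r = 0.170 and 0.225 with the corrected change.

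Many called bins adjoined others called in the same direction. The higher bins formed 234 uninterrupted stretches, 87 of them of a single bin, and the lower bins 222, 86 of them of a single bin, and runs of 5 or more held 52.5% of the higher and 46.4% of the lower bins. The longest higher run covered 17 bins of chromosome 16 from 59000001 to 76000000, with a mean log2 ratio of 0.40 in line 1 and 0.45 in line 2 and a mean GC content of 37.3%. Its largest genes were Cadm2, Epha6, Robo1, Robo2 and Epha3, which encode an adhesion molecule of neurons and receptors of axon guidance. Of 3 higher runs of 12 bins, that on chromosome 10 from 27000001 to 39000000, with Nkain2, Lama2 and Ptprk, held 42 gene starts and no bin without one, and had 0.35 in line 1 and 0.34 in line 2. A run of 12 bins on chromosome 15 from 13000001 to 25000000 held only 6 gene starts, and its largest genes were all cadherins, namely Cdh12, Cdh18, Cdh10, Cdh6 and Cdh9. A run of 12 bins on chromosome 14 from 87000001 to 99000000, with Pcdh9, Klhl1 and Dach1, had 0.49 in line 1 and 0.55 in line 2. The longest lower run was of 20 bins on chromosome 4 from 123000001 to 143000000, with 337 genes, a mean GC content of 48.3% and mean log2 ratios of -0.36 in line 1 and -0.33 in line 2. Runs of 16 lower bins lay on chromosome 15 from 73000001 to 89000000 with 310 genes and on chromosome 5 from 110000001 to 126000000 with 242 genes.

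The largest gain among bins that passed was on chromosome 4 from 113000001 to 114000000, a bin that holds Skint5 and Skint6, of a family named for Skint1, which certain T cells of the skin need in the thymus. It had 190.2 and 193 CPM at p0 and 308 and 322 CPM at p10 in replicates 1 and 2. Both p10 values were higher than both p0 values, a fold of 1.64 (log2FC 0.72, SE 0.030, limma adjusted p 8.33e-08). The gain from 44000001 to 45000000 on chromosome 3 held no protein-coding gene and had 199 and 199 CPM at p0 and 299.8 and 327 CPM at p10. Its groups did not overlap either, with a fold of 1.57 (log2FC 0.65, SE 0.060, limma adjusted p 6.22e-06). The 3 gains from 71000001 to 72000000 on chromosome 3, from 56000001 to 57000000 on chromosome 5 and from 68000001 to 69000000 on chromosome 16 also held no protein-coding gene, and their log2FC was 0.65, 0.65 and 0.64. The remaining named gain, on chromosome 7 from 85000001 to 86000000, holds 9 genes with Vmn2r71, Vmn2r67 and Vmn2r73 the largest, which encode vomeronasal receptors for pheromones. It had 203 and 202 CPM at p0 and 305 and 325 CPM at p10 (log2FC 0.64, SE 0.031, limma adjusted p 8.73e-08). Once a curve on GC content was subtracted from each library, the 6 named gains had a log2FC from 0.01 to 0.19, and 0 of them passed. Without that correction and scaled by total reads, 63 autosomal bins had a log2FC above 0.58. That is the value that 3 copies in place of 2 in every cell would give. The lowest log2FC of a bin was -0.44, against -1 for 1 copy in place of 2. A ratio from bulk DNA cannot tell a change in every cell from a larger change in some of them.

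The deepest loss was on chromosome 4 from 140000001 to 141000000, where Igsf21, Arhgef10l and Padi2 are the largest of 10 genes. It had 611 and 575 CPM at p0 and 434 and 437 CPM at p10. Both p10 values were below both p0 values, a fold of 0.736 (log2FC -0.44, SE 0.033, limma adjusted p 3.41e-06). On chromosome 8 the bin from 120000001 to 121000000, with Gse1 among its largest genes, had 603 and 572 CPM at p0 and 433 and 434 CPM at p10 (log2FC -0.44, SE 0.035, limma adjusted p 6.94e-06). The chromosome 15 bin from 84000001 to 85000000, with Parvb, Phf21b and Shisal1, had a log2FC of -0.43. The chromosome 4 bin from 154000001 to 155000000 also had -0.43, and it holds Prdm16, a transcription factor of brown fat and haematopoietic cells, and Trp73, a member of the p53 family. The losses on chromosome 11 from 114000001 to 115000000 (Sdk2, Ttyh2 and Dnaic2) and on chromosome 10 from 80000001 to 81000000 both had -0.42. The latter holds Dot1l, the H3K79 methyltransferase, and is the richest of the named bins in genes, with 53 gene starts and a GC content of 53.7%. After the same subtraction of a GC curve the 6 named losses had a log2FC from -0.07 to 0.01, and 0 of them passed.

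Whole autosomes shifted with their composition. Relative to the median autosomal bin, 14 of 19 autosomes (73.7%) passed with limma (adjusted p under 0.05 over 21 chromosomes), 7 higher and 7 lower, and 71.4% passed with X and Y included. Chromosome 11 fell most, with 5.71% and 5.67% of reads at p0 and 5.24% and 5.19% at p10. The Wilson 95% interval of the first of these shares ran from 5.70% to 5.71%. Its shift was -0.19 in line 1 and -0.16 in line 2 (log2FC -0.18, SE 0.017, limma adjusted p 0.000267). Chromosome 3 rose most, with 5.75% and 5.79% of reads at p0 and 6.28% and 6.56% at p10, and its shift was 0.14 in line 1 and 0.20 in line 2 (log2FC 0.17, SE 0.058, limma adjusted p 0.0424). Chromosomes 16 (0.10), 14 (0.08), 15 (0.05), 1 (0.03), 4 (0.03) and 13 (0.02) followed with values above 0, of which chromosome 4 was near the threshold (limma adjusted p 0.0448). Chromosomes 5 (-0.10), 9 (-0.10), 7 (-0.09), 19 (-0.07), 17 (-0.07) and 8 (-0.06) were lower. Chromosomes 2, 6, 10, 12 and 18, from -0.01 to 0.03, did not pass. The calls of the smaller shifts depended on the fit and the filter. With a fixed replicate block over all 10 libraries, the doubtful p20 Keniry2022 numbers included, chromosomes 3 and 4 lost their call (limma adjusted p 0.0586 and 0.0671) and chromosome 2 gained one (0.0440). With only the 4 libraries compared and a fixed block, chromosome 3 passed (limma adjusted p 0.0035, SE 0.019), chromosomes 4 (0.0658) and 13 (0.0637) did not, and chromosome 6 did (0.0219). With bins under 0.5 of the median removed chromosome 4 fell to 0.00284 (limma adjusted p 0.793), chromosome 13 lost its call (0.0819) and chromosome 6 gained one (0.0180), and with no filter chromosome 12 rose to 0.05 (0.00191). Leaving out any 1 of the 4 libraries also ended the calls of chromosomes 3 (limma adjusted p 0.0650 to 0.167) and 4 (0.0650 to 0.184), and chromosome 13 lost its own without p0 replicate 2. Over the 19 autosomes the shift had r = -0.95 with the median GC content, a description over chromosomes of the same libraries. Within single autosomes r with GC ran from -0.984 to -0.945 in line 1 and from -0.971 to -0.918 in line 2, and each autosome held both higher and lower bins.

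**Figure D3:**
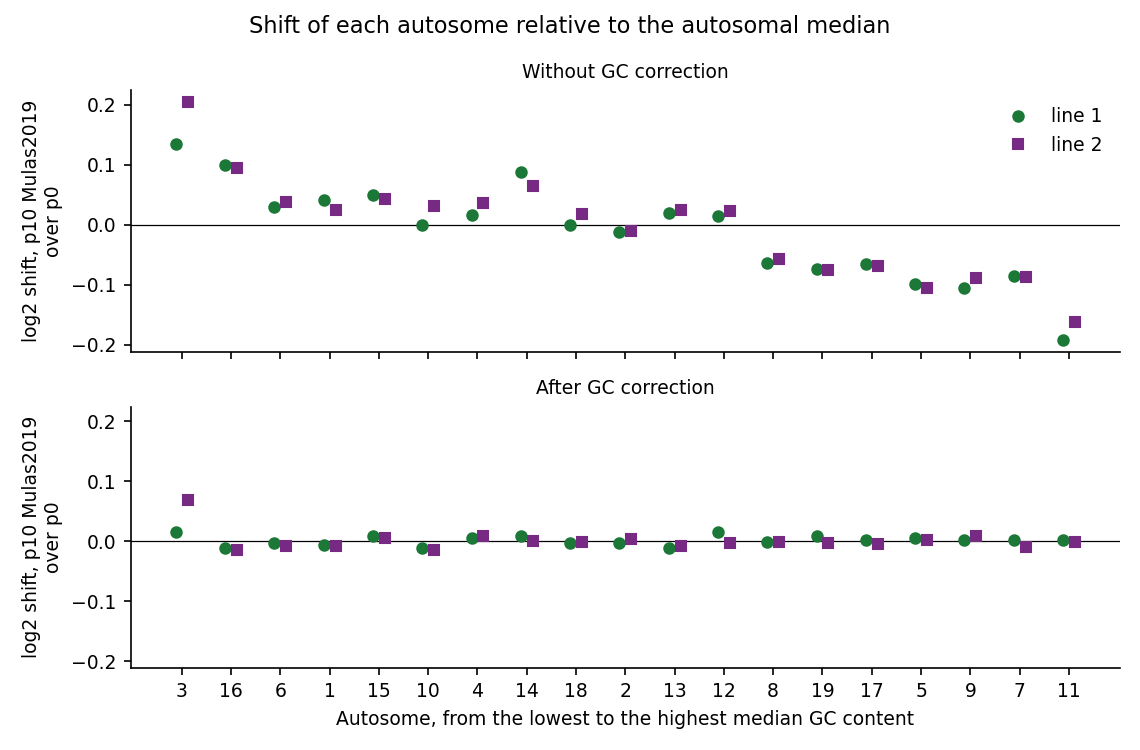
Each autosome's log2 shift, p10 Mulas2019 over p0, is the median of its bins minus the median autosomal bin, in line 1 (green circles) and line 2 (purple squares), with autosomes ordered by median GC content from left to right. Without the GC correction (top) the values run from 0.20 for chromosome 3 down to -0.19 for chromosome 11, and after it (bottom) only chromosome 3 in line 2 lies more than 0.02 from 0.

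The next question was what remains once GC content is accounted for. A smooth curve of log2 CPM on GC content was subtracted from each library. The SD of the change fell from 0.278 to 0.044 in line 1 and from 0.292 to 0.048 in line 2, so that 97.5% and 97.4% of the variance over bins went with the curve. After the correction 1 autosomal bin passed with limma's TREAT (0.0418%), and 7 had an unadjusted p under 0.05. Of the autosomes, 3 passed with limma, chromosomes 1, 13 and 16, all slightly lower at -0.01, and chromosome 13 lost its call with a fixed replicate block (limma adjusted p 0.0551). Chromosome 3 had 0.02 in line 1 and 0.07 in line 2 (log2FC 0.04, limma adjusted p 0.775), and the corrected value of line 2 was above that of line 1 in 155 of its 157 bins, against 30.8% to 52.2% of the bins on the other 18 autosomes. The other 18 autosomes lay between -0.01 and 0.01 in log2FC.

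The bin that still passed lies on chromosome 7 from 59000001 to 60000000 and holds Ube3a and Snrpn, imprinted genes of the Prader-Willi and Angelman region, next to small RNA genes in tandem copies. It had 151 and 150.01 CPM at p0 and 193 and 192 CPM at p10. The groups did not overlap (log2FC 0.36, SE 0.023, limma adjusted p 3.06e-06), and after the correction the values were 0.31 in line 1 and 0.35 in line 2 (limma adjusted p 0.00131). Its GC content was 41.3%, in a class with medians of 0.06 in line 1 and 0.03 in line 2, and 60.7% of it was repeat-masked. By the same ranking the chromosome 8 bin from 55000001 to 56000000, with Gpm6a and Glra3, had corrected values of 0.23 and 0.22. The chromosome 9 bin from 35000001 to 36000000, with Cdon, had corrected values of 0.27 and 0.21, from ratios of 0.21 and 0.12 that did not pass. In the latter 1 window of 10 kb held 21.1% and 20.8% of the reads at p0 and 31.7% and 28.4% at p10, and without that window the ratios were 0.00 and -0.03. The lowest corrected values were those of the chromosome 17 bin from 39000001 to 40000000, with -0.52 and -0.37. There 1 window held 55.8% and 50.7% of the reads at p0 and 29.8% and 30.1% at p10, and without it the ratios to p0 were 0.61 and 0.64, at a GC content of 37.4%, where the class of 36% to 38% GC had medians of 0.49 and 0.55. The chromosome 7 bin from 7000001 to 8000000, with Vmn2r35, had -0.16 and -0.19, and the chromosome 16 bin from 74000001 to 75000000, which holds the start of Robo2, had -0.12 and -0.10 although it was itself higher at p10 (log2FC 0.43).

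In all, 36 bins had a corrected value beyond 0.1 in size with the same sign in both lines, 32 above and 4 below, while 0 had opposite signs. These were chosen by the values themselves, which can differ in sign from the ratio before the correction, and are described without a test. The 32 bins above 0 had a median of 50.3% masked sequence, against 31.7% over all autosomal bins, and 254 CPM at p0, against 420.4. Olfactory or vomeronasal receptor genes started in 12 of the 32 (37.5%), against 5.10% of all autosomal bins, and 4 (12.5%) lay in the first 5 Mb of a chromosome, against 1.51%. Over all bins the corrected change had r = 0.340 in line 1 and 0.364 in line 2 with the masked share, and the lines had r = 0.715 with each other, or 0.737 without chromosome 3. The part of repeats in these values was not tested.

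**Figure D4:**
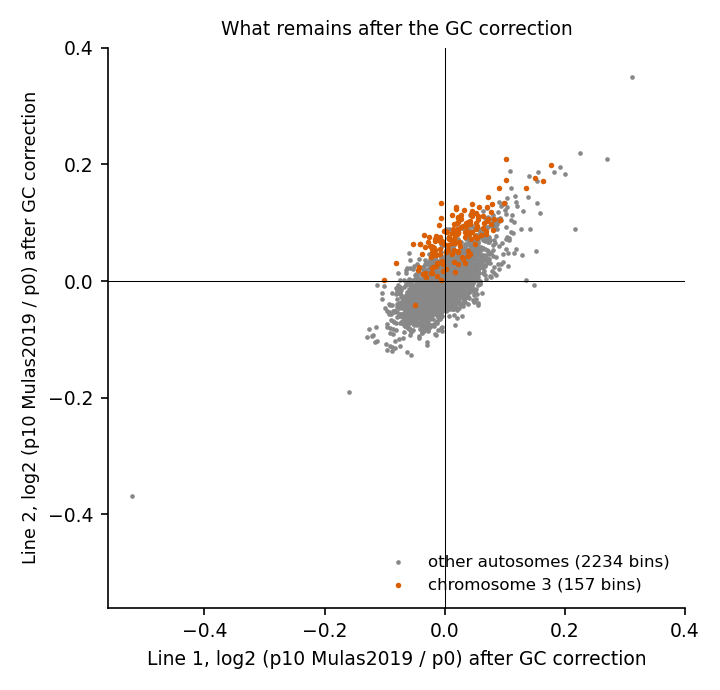
Each point is an autosomal bin of 1 Mb, with the log2 ratio of p10 Mulas2019 over p0 after the GC correction in line 1 (x axis) and line 2 (y axis). Most bins of other autosomes (grey) lie within 0.1 of 0, and 155 of the 157 bins of chromosome 3 (orange) lie higher in line 2 than in line 1.

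Genes of the naive state are described by the bin of their start site. Of 17 naive pluripotency genes, 0 lay in a higher bin, 10 in a lower bin and 7 in a bin that did not pass, with a median log2FC of -0.23 over their bins, or 1 higher and 4 lower with the 75th percentile scaling. With total reads as the scale the share in lower bins was 58.8%, against 48.8% of all autosomal genes, of which 12.3% lay in higher bins. With the 75th percentile scaling 48.4% of all autosomal bins were higher and 2.51% lower. Pou5f1, which encodes OCT4, lies in a bin with 534 and 525 CPM at p0 and 426 and 415 CPM at p10, and both p10 values were below both p0 values (log2FC -0.33, SE 0.022, limma adjusted p 5.20e-06). Esrrb, an orphan nuclear receptor of the naive network, had 596 and 581 CPM at p0 and 463 and 468 at p10 (log2FC -0.34). The other lower members were Sall4 (-0.37), Tfap2c (-0.37), Tbx3 (-0.37), Gbx2 (-0.37), Nr5a2 (-0.25), Klf2 (-0.23), Tfcp2l1 (-0.22) and Klf4 (-0.19). The bins of Nanog and Dppa3, which is the same bin (-0.16), Prdm14 (-0.07), Sox2 (-0.11), Dppa5a (-0.11), Klf5 (-0.04) and Zfp42 (0.19) did not pass. The bin of Zfp42, the only one with a value above 0, had 319 and 331 CPM at p0 and 369 and 370 CPM at p10 and a GC content of 39.6%.

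Targets and effectors of 2i and LIF were looked at next. Of 19 genes, 0 lay in a higher bin, 13 in a lower bin and 6 did not pass, with a median of -0.24, or 1 higher and 0 lower with the 75th percentile scaling. With total reads as the scale the share in lower bins was 68.4%, against 48.8% of all autosomal genes. With the 75th percentile scaling 48.4% of all autosomal bins were higher and 2.51% lower. Map2k2, which encodes MEK2, a target of the MEK inhibitor, had 412 and 390.3 CPM at p0 and 305 and 312 at p10 (log2FC -0.38, SE 0.035, limma adjusted p 4.16e-05), with no overlap. The bin of Map2k1, for MEK1, had -0.28, and that of Mapk3, for an ERK kinase, had -0.30. Of the GSK3 genes Gsk3a had -0.29 and Gsk3b, which did not pass, -0.17. Of the LIF arm, Stat3 (-0.35), Socs3 (-0.37), Jak1 (-0.18), Il6st (-0.18) and Lif (-0.24) lay in lower bins, and Lifr (-0.14) did not pass. Of the Wnt arm, Ctnnb1 (-0.33), Tcf7l1 (-0.35) and Apc (-0.20) were in lower bins and Axin2 (-0.13) was not. Among feedback inhibitors of ERK signalling, Spry4 had -0.31, whereas Dusp6 (-0.05) and Spry2 (-0.02) did not pass.

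Cyclins, their kinases and inhibitors, and genes of the p53 and RAS pathways were taken as genes of growth control. Of 20 genes, 0 lay in a higher bin, 14 in a lower bin and 6 did not pass, with a median of -0.27, or 3 higher and 3 lower with the 75th percentile scaling. With total reads as the scale the share in lower bins was 70.0%, against 48.8% of all autosomal genes. With the 75th percentile scaling 48.4% of all autosomal bins were higher and 2.51% lower. The bin of Trp53, the p53 gene, had 590 and 567 CPM at p0 and 456 and 458 at p10 (log2FC -0.34, SE 0.028, limma adjusted p 2.34e-05). Ccnd1 (-0.38), Ccnd2 (-0.31) and Ccnd3 (-0.38), for the D cyclins, and Cdk4 (-0.35), their partner, were all in lower bins, and so were the inhibitors Cdkn1a (-0.37) and Cdkn1b (-0.22). Mdm2 (-0.24), Mdm4 (-0.35), Bcl2l1 (-0.31), Birc5 (-0.37), Nf1 (-0.27) and Nf2 (-0.24) also lay in lower bins. Myc had 360.04 and 373 CPM at p0 and 414 and 409 CPM at p10 and did not pass (log2FC 0.17). Cdkn2a (0.11), Cdk6 (0.03), Rb1 (-0.01) and Mycn (-0.11) did not pass either. The lower bins thus held genes that promote growth as well as genes that restrain it.

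Long genes of neurons mostly started in higher bins. Of 20 listed, 18 started in a higher bin, 0 in a lower bin and 2 in a bin that did not pass, with a median of 0.49. The bins of their start sites had a median GC content of 37.3%, against 41.7% over all autosomal bins. The list was chosen with earlier results of these data known. Over all autosomal genes 12.3% lay in higher and 48.8% in lower bins, and over all autosomal bins 31.0% were higher. Pcdh9, a protocadherin, had 222 and 219 CPM at p0 and 331 and 352 CPM at p10, and both p10 values were above both p0 values (log2FC 0.63, SE 0.028, limma adjusted p 8.33e-08). Csmd3 (0.62), Cntnap2 (0.61), Lrp1b (0.57), Ptprd (0.56), Cdh12 (0.55), Cdh10 (0.53) and Cdh9 (0.52) were also above 0.5. Nrg3 (0.47), Cntn5 (0.42), Magi2 (0.38), Pcdh15 (0.29), Lsamp (0.23), Ctnna2 (0.22), Macrod2 (0.20) and Csmd1 (0.19) passed with smaller values. Dlg2 (0.18) and Ctnna3 (-0.11) did not pass. The values describe the bin of 1 Mb and not the gene alone, and they are amounts of DNA and not of RNA.

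**Figure D5:**
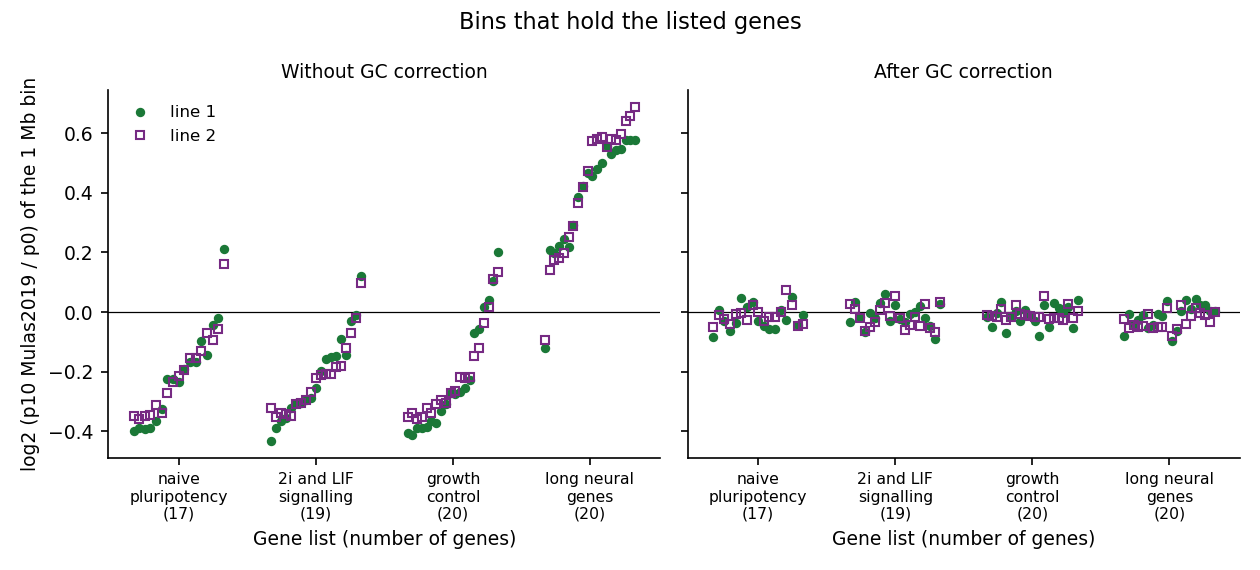
Each gene is shown by the log2 ratio of p10 Mulas2019 over p0 of its 1 Mb bin in line 1 (green circles) and line 2 (purple squares), ordered by log2FC within 4 lists, without (left) and with (right) the GC correction. The first 3 lists lie mostly below 0 and the long neural genes mostly above 0 on the left, and all 4 lie around 0 on the right.

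Gene families in clusters are given by their bins, beside 31.0% higher and 27.2% lower over all autosomal bins. The 1086 autosomal olfactory receptor genes start in 82 bins, of which 29 were higher, 16 lower and 37 did not pass, and their median was 0.05. The highest was a bin of chromosome 7 with Olfr292 (0.59) and the lowest a bin of chromosome 11 with Olfr222 (-0.30). Of 325 autosomal vomeronasal receptor genes 266 lay in measured bins, 45 in all, of which 22 were higher, 3 lower and 20 did not pass, with a median of 0.17, from Vmn1r183 (-0.31) to Vmn2r66 (0.64). The 49 keratin genes start in 4 bins, 0 higher and 3 lower, with Krt1 lowest (-0.36) and Krt10 highest (-0.12). The 4 Hox clusters, with 39 genes in 5 bins, had 0 higher and 2 lower bins and a median of -0.15, from Hoxb1 (-0.29) to Hoxd1 (-0.05), but a median of 0.04 with the 75th percentile scaling. The 75 ribosomal protein genes start in 70 bins, of which 3 were higher and 43 lower, with a median of -0.27. The 67 core histone genes start in 14 bins, of which 1 was higher and 8 lower, with a median of -0.22. After the GC correction 0 bins of any list passed with limma, and the medians of the 10 lists lay between -0.03 and 0.07. With libraries scaled by the 75th percentile keratins had 0 higher and 0 lower genes, and 19 of 20 long neural genes were higher. The medians of the lists kept their sign except that of the Hox clusters. Counted by gene, the families had 681 higher and 84 lower olfactory receptors, 171 and 10 vomeronasal receptors, 3 and 47 ribosomal proteins, 5 and 8 core histones, 0 and 37 keratins and 0 and 18 Hox genes with total reads as the scale, beside 12.3% higher and 48.8% lower over all autosomal genes. With the 75th percentile, where 1157 bins were higher and 60 lower of 2391, 0 Hox genes passed, olfactory receptors had 884 higher and 0 lower genes, vomeronasal receptors 232 and 0, and ribosomal proteins had 12 higher and 6 lower and core histones 50 higher and 1 lower genes.

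The p10 Mulas2019 libraries were last set directly beside those of the same lines at p10 in the Keniry2022 conditions and at p20 in the Mulas2019 conditions. Both comparisons share the p10 Mulas2019 libraries with that to p0. Against p10 Keniry2022, which is matched by passage but not by days in culture, 673 of 2391 autosomal bins (28.1%) differed with limma's TREAT, 467 higher and 206 lower in the Mulas2019 conditions. Without p10 Keniry2022 replicate 1 this share was 13.5% (302 higher and 21 lower), the lower bins were 83 and 123 without p10 Mulas2019 replicate 1 or 2 and 108 with libraries centred on the median bin, and with the 75th percentile scaling 845 bins were higher and 0 lower. The ratio of p10 Mulas2019 to p10 Keniry2022 fell with GC by 0.049 per percent in line 1 and by 0.043 in line 2, and its median was 0.30 in both lines over the 366 bins under 38% GC and -0.23 and -0.17 over the 341 bins of 46% GC or more. Against p20 Mulas2019, 424 bins (17.7%) differed, 26 higher and 398 lower at p20, or 0 and 734 with the 75th percentile scaling. The few higher bins depended on the fit, with 1 and 8 without p10 Mulas2019 replicate 1 or 2, 53 and 44 without p20 Mulas2019 replicate 1 or 2, 44 without any 1 of the Keniry2022 libraries and 2 with median centring. The slope of log2 CPM on GC was 0.089 and 0.077 per percent at p10 Keniry2022 and 0.081 and 0.074 at p20 Mulas2019, between those at p0 (0.116 and 0.112) and those at p10 Mulas2019 (0.040 and 0.034). Both p10 Mulas2019 libraries were thus the flattest of these 8 libraries. After the GC correction 0 bins passed in either comparison, with 2 and 1 at an unadjusted p under 0.05.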

How the data were processed

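Low-coverage DNA sequencing libraries of mESC lines were compared by reads per genomic bin. Per the labels the authors demultiplexed with bcl2fastq and mapped to mm10 with Bowtie2, and their versions are not given in the sources used here. In the deposited table log2 values are given for 272566 windows of 10 kb, and its 10 columns were all matched to samples by name. From the values, each is the log2 of a read count scaled to the largest library, with empty windows set to 0.9 reads, and 100.0% of values gave back a whole number of reads within 0.1. The methods describe CPM in 1 Mb bins without blacklisted regions, so windows were summed to 1 Mb here, with no blacklist and without 2 mitochondrial windows. Bins under 0.1 of the median bin were removed.

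The log2 CPM of all 10 libraries was fitted with limma 3.58.1 in R 4.3.3 (5 groups, trended variance, line as a random block with a consensus correlation of 0.13, estimated with statmod 1.5.0). TREAT tested against a fold of 1.1 with Benjamini-Hochberg adjustment over 2541 bins at 0.05. The methods name 1.1 as a log2 fold change, which was run as an alternative. Autosomes were tested by limma on the median of their bins. The replicate number was taken to mark a line, as the methods describe 2 lines each split between conditions. GC content was corrected by a loess curve (span 0.3) in each library. Genes were those of GENCODE M21, placed in the bin of their start site. Other steps ran in Python 3.11.15 (pandas 2.3.3, numpy 2.4.6, scipy 1.17.1), with figures drawn in matplotlib 3.10.9. The fit was tested on simulated data. These had independent noise in each bin and no GC trend between libraries, so they do not test calls made under such a trend. Wilson 95% intervals cover counting error only, and p-values measure only the spread between these libraries, which come from 2 lines.

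The comparison, the gene lists and the rules were chosen with earlier results of these data known. Named bins were the 6 largest gains and 6 deepest losses that passed with the same sign in both lines, at most 1 per run, with their 3 largest genes, and the 3 highest and 3 lowest bins after GC correction by the less extreme line. All 19 autosomes and the members of the 4 short lists were named, apart from some genes and a sequence that are not reported here though the genes stay in the counts, and of gene families the highest and lowest member. Alternatives covered scaling, voom on recovered reads, filters, bin size, blocks, GC correction, the minimum change, left-out libraries and the mean of bins.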

Additional observations from a re-analysis of the deposited data

Results flagged for a closer look

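Against p10 Keniry2022, limma's TREAT called 673 autosomal bins. The named gains and losses were chosen for extreme values in the same p10 Mulas2019 libraries, so their part in this difference is given as a description. The gains were higher in the Mulas2019 conditions, with log2 differences of 0.44 for the chromosome 4 bin with Skint5, 0.34 and 0.36 for the chromosome 3 bins that start at 44000001 and 71000001, 0.34 for that of chromosome 5, 0.35 for that of chromosome 16 and 0.39 for the vomeronasal receptor bin of chromosome 7. The losses were lower, with -0.29 for the Igsf21 bin, -0.27 for the Gse1 bin, -0.28 for the Parvb bin, -0.27 for the Prdm16 bin, -0.26 for the Sdk2 bin and -0.27 for the Dot1l bin. Of the bins chosen after the GC correction, that with Ube3a differed by 0.22, that with Gpm6a by 0.29 and that with Robo2 by 0.25.

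Between p20 and p10 in the Mulas2019 conditions 424 autosomal bins differed. At p20 the Skint5 bin was lower by a log2 difference of -0.36, the named bins of chromosomes 5 and 16 by -0.35 and -0.36, and the vomeronasal receptor bin by -0.38. The Sdk2 bin was higher by 0.22. The bins with Ube3a, Gpm6a and Robo2 had -0.21, -0.29 and -0.23. Of the named bins, 4 of 6 gains and 1 of 6 losses passed, and both chromosome 3 gains (limma adjusted p 0.602 and 0.281) and the other 5 losses did not. Over all autosomal bins 17.7% passed, with 1.09% higher and 16.6% lower at p20. All named bins were chosen for extreme values in the same p10 Mulas2019 libraries, so their values at p20 are given as a description. These comparisons share the p10 Mulas2019 libraries with the comparison to p0.

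Outside the autosomes, the X chromosome was higher at p10 than at p0, by 0.34 in line 1 and 0.38 in line 2 (log2FC 0.36, SE 0.021, limma adjusted p 4.28e-05). After the GC correction it was higher by 0.05 and 0.06 and still passed (log2FC 0.06, SE 0.0031, limma adjusted p 6.97e-05). With bins under 0.5 of the median removed, which left 2386 bins in all and 2358 on the autosomes and so took out most of X, the value without the correction was 0.03 (limma adjusted p 0.0172).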

How the results depend on the processing

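Base composition, scaling and the minimum change decided most counts. In the fits with a GC correction and the replicate block, random or fixed alike, 0.0418% of autosomal bins passed against p0, 0 against p10 Keniry2022 and 0 between p20 and p10. At an unadjusted p under 0.05 there were 7, 2 and 1 bins by limma. Under the random and the fixed block with that correction 3 and 2 autosomes passed, and the pairing of lines without a GC correction left the share against p0 at 58.5% with a fixed block and 57.5% with none. In both corrected fits the shift took the opposite sign for autosomes 1 (-0.00688), 2 (1.60e-06), 5 (0.00330), 6 (-0.00568), 9 (0.00523), 10 (-0.0132), 11 (0.000752), 13 (-0.0105), 16 (-0.0133), 18 (-0.00167) and 19 (0.00282). So did the Dot1l bin (0.0139) and the bins of chromosome 17 (-0.445), Vmn2r35 (-0.175) and Robo2 (-0.110). Genes in bins that passed were 0 in each of the 10 lists after that correction, and the SD of the change was 0.0438 and 0.0475. With bins of 500 kb the SD was 0.291 in line 1 and 0.305 in line 2, and with bins of 2 Mb 0.260 and 0.273.

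Requiring a change above 1.1 on the log2 scale left 0 bins (0 unadjusted by limma), and no minimum gave 89.1%, 1032 bins higher and 1099 lower. With the 75th percentile scaling the share between p20 and p10 was 30.7%, and the genes in bins that passed were 5 for naive pluripotency, 1 for 2i and LIF, 6 for growth control, 0 for keratins, 0 for Hox clusters, 18 for ribosomal proteins and 51 for core histones. Against p0 that scaling called 50.9% of all autosomal bins, 48.4% higher and 2.51% lower. By the mean of bins, autosomes 4 (-0.00311) and 13 (-0.00692) turned sign.

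Leaving out 1 library gave 54.5% to 58.4% against p0 and 11 to 12 autosomes. It gave 13.5% to 34.3% against p10 Keniry2022, the lowest without p10 Keniry2022 replicate 1, and 12.6% to 18.9% between p20 and p10. Autosome 18 ranged from -9.69e-06 (without p0 replicate 2) to 0.0177, and the chromosome 17 bin from -0.0237 (without p10 Mulas2019 replicate 2; -0.00411 without p0 replicate 2) to 0.105. Leaving out libraries of other groups, leaving out the highest window and the list counts under other scalings were chosen after seeing the data. The 4-library fit used a fixed block, since a random one could not be estimated. Of 447 values of named bins under alternatives 390 were unchanged, and of 304 of autosomes 240 were. Unchanged meant the same direction and call. With the highest window left out, which was not tested, it meant a move no larger than the SD between the 2 lines. The causes were not tested. Counting error was under 1% for the median autosomal bin of a library and larger in bins with fewer reads. There were 2 lines with 1 library per culture.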
